A study of Mus musculus with 70 samples.

Results

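The 7 marker genes of satellite glia, Gfap, Ednrb, S100b, Fabp7, Glul, Sox10 and Gja1, were followed across mouse dorsal root ganglia of 9 inbred strains with and without axotomy. The members were all probes that the array's annotation assigns to these 7 symbols: 8 of the 25697 probes on the array, for 6 of the 7 genes. Ednrb had 3 probes, Gfap, S100b, Fabp7, Glul and Gja1 had 1 each, and Sox10, the transcription factor of neural crest glia, had no annotated probe and was not analysed here.

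Satellite glia are cells of neural crest origin that wrap the cell bodies of sensory neurons in the dorsal root ganglion. They share many genes with Schwann cells and with astrocytes of the central nervous system, they are coupled to each other through gap junctions, they take up glutamate and convert it to glutamine, and they are known for raised glial fibrillary acidic protein after nerve injury. None of the 7 genes is restricted to them: S100b is also expressed by Schwann cells, Gfap by non-myelinating Schwann cells, and Gja1 and Glul by several other cell types.

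The 9 strains, labelled C57, DBA, C3H, AJ, 129, NOD, NZO, CAST and WSB, were each measured without injury (NAIVE) and after axotomy (AX5D, a label taken to mean day 5). Which nerve was cut and how old the animals were is not given in the labels, and no transgene or drug is named. Each sample was total RNA from 6 ganglia of 3 mice, so that animals were pooled within a sample, and replicates are described as biologically distinct. Of 70 labelled samples, each hybridised to 1 Illumina bead array, 35 were NAIVE and 35 AX5D, with 4 arrays in each of 16 groups and 3 in each of both AJ groups. A level below is the log2 of an intensity corrected for background and quantile-normalised between arrays, a response is the AX5D level minus the NAIVE level, and a probe was called where limma's adjusted p, over all 17616 probes kept, was under 0.05. All 8 probes of the members were kept.

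Between 13147 and 14721 probes were detected per array, meaning a detection p under 0.05 against the array's negative controls. The injury genes Atf3, Npy, Gal and Sprr1a rose by log2 5.56, 7.37, 4.67 and 5.76 as a mean over the strains. In the deposited table, arrays that lie in the same run of 8 neighbouring columns deviated together from their group means, with a mean residual correlation over all kept probes of 0.14 within runs and -0.03 between runs. The labels give no batch, so these 9 runs are known only from the column order; each run held both treatments and several strains, and run 9 held 7 NAIVE arrays and 1 AX5D array. Several members moved strongly with the runs, as the plot of deviations by run shows, and the responses of members whose call changed with a run term in the model are given both ways.

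**Figure D1:**
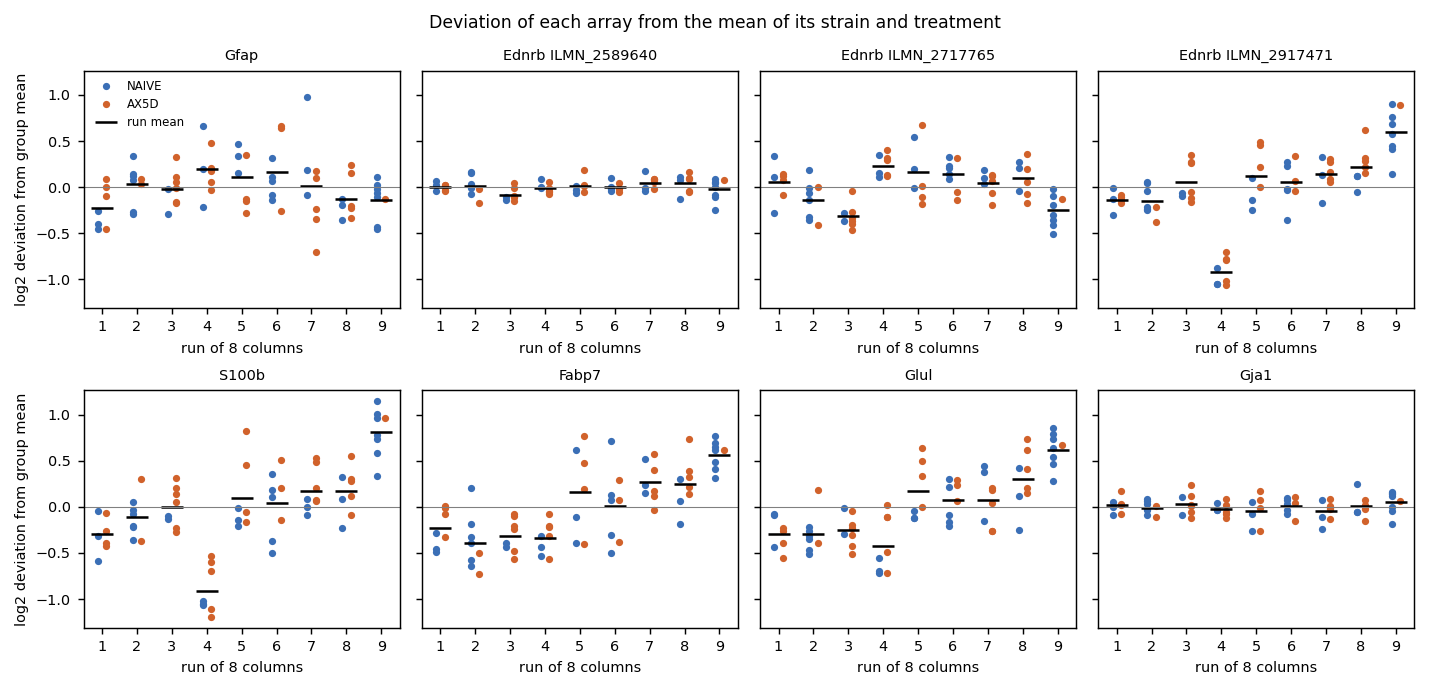
Deviation of each array's log2 level from the mean of its strain and treatment, for the 8 probes, against the run of 8 neighbouring columns; points are arrays (NAIVE blue, AX5D orange) and bars the mean of a run. S100b and Ednrb probe ILMN_2917471 were low in run 4 and high in run 9 in both treatments, while Gja1 and Ednrb probe ILMN_2589640 stayed near 0 in every run.

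S100b showed the run pattern most plainly. Its 8 arrays in run 4 were each the lowest of their group, with a mean deviation of -0.91 on the log2 scale, and its 8 arrays in run 9 were each the highest of their group, with a mean deviation of 0.81. Ednrb probe ILMN_2917471 gave the same counts, with mean deviations of -0.92 and 0.60. For Glul the mean deviations in these runs were -0.42 and 0.62, and for Fabp7 -0.33 and 0.57. For Gfap they were 0.19 and -0.14. The pooled standard deviation within groups was 0.58 for S100b and 0.24 once run means were removed, and 0.50 and 0.15 for Ednrb probe ILMN_2917471. For Gja1 it was 0.12 before and 0.13 after run means were removed.

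The 250 bases before the transcription start were available from RefSeq (GRCm38.p6) for 6 of the 7 genes. Those of Gfap and Fabp7 are shown because their responses differed between strains, and that of Gja1 because it alone held a match to one of the motifs searched. All are written 5′ to 3′ on the strand of the gene, Gfap from chr11:102897201-102897450 (minus strand), Fabp7 from chr10:57784673-57784922 (plus strand) and Gja1 from chr10:56377050-56377299 (plus strand), and capitals mark the match.
Gfap: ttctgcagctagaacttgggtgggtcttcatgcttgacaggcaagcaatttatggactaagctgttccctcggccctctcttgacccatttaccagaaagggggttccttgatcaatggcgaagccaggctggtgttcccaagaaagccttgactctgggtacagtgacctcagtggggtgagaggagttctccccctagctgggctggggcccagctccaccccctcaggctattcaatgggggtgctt
Fabp7: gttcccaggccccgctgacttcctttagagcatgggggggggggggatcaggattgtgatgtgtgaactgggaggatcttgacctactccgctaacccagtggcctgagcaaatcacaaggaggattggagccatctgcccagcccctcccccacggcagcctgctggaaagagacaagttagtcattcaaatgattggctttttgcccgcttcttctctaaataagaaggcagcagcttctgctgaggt
Gja1: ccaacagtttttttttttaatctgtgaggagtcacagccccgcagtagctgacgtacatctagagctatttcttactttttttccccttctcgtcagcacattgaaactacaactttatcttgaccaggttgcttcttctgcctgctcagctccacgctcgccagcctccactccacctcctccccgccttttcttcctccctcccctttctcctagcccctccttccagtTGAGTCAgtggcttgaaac

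The motifs were the SOX core ACAAAG, the STAT motif TTCNNNGAA, the AP-1 motif TGANTCA and the TATA box TATAAA, searched on both strands. The AP-1 motif matched once, in Gja1, from base -19 to base -13 before the start. Over all 32851 regions of this length in the table, 6.75% held the AP-1 motif, 16.5% the SOX core, 7.02% the STAT motif and 12.4% the TATA box. The other 5 members held none of the 4 motifs in this window.

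Averaged over the 9 strains, 3 of the 6 genes rose after axotomy, 2 fell and 1 was not called, taking the brightest of the 3 Ednrb probes. Gfap, Ednrb and Glul were higher and S100b and Gja1 lower, and Fabp7 was not called. Of all 11815 genes with a kept probe, 61.6% were called in this contrast, 28% higher and 33.5% lower, so that being called is the common case on this array. Over all 17616 probes the share called was 59.5%, 26.4% higher and 33% lower, and the median response was -0.04. The median of the 6 genes was 0.13. For every member probe the range of the 35 NAIVE arrays overlapped that of the 35 AX5D arrays, and only 1.82% of all probes had ranges that did not. In whole ganglia, fewer cells of a type and less RNA per cell cannot be told apart.

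Gfap, the intermediate filament protein of astrocytes and reactive glia, was near background in uninjured ganglia and rose after axotomy in DBA, C3H, CAST and AJ. It was detected on 3 of 35 NAIVE arrays and on 17 of 35 AX5D arrays. In DBA the NAIVE levels were 5.19, 5.43, 5.59 and 5.60 and the AX5D levels 6.96, 7.66, 7.73 and 8.34. In C3H they were 5.04, 5.31, 5.38 and 5.87 against 6.87, 7.19, 7.42 and 7.81. In CAST they were 5.07, 5.28, 5.81 and 5.84 against 6.41, 6.62, 6.65 and 6.80. Every AX5D array of these 3 strains lay above every NAIVE array of the same strain and was detected.

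AJ moved less, with NAIVE levels of 5.17, 5.31 and 5.41 against AX5D levels of 5.93, 6.26 and 6.33, again without overlap. The other 5 strains overlapped. In C57, NAIVE levels were 5.14, 5.24, 5.24 and 6.52 and AX5D levels 5.15, 5.20, 5.46 and 6.13. In 129 they were 4.97, 5.28, 5.36 and 6.09 against 5.34, 5.40, 5.62 and 5.92. In NOD, NZO and WSB no array of either treatment was detected, with levels from 5.02 to 5.82.

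**Figure D2:**
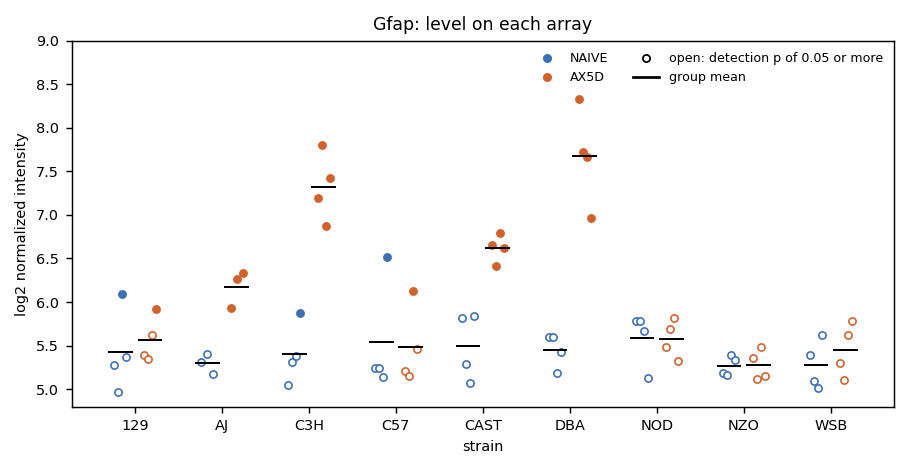
Gfap level (log2 normalised intensity) on each array by strain, NAIVE in blue and AX5D in orange; open circles were not detected (detection p of 0.05 or more) and bars are group means. AX5D arrays of AJ, C3H, CAST and DBA lie above the NAIVE arrays of their strain, with DBA reaching 8.34, and the other 5 strains overlap.

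The response of Gfap was 2.22 ± 0.24 (SE) in DBA, at least 3.27-fold because no NAIVE array of DBA was detected, with an adjusted p of 1.7e-11 by limma. A bound of this kind sets the AX5D mean against the lowest signals that were detected on the NAIVE arrays. C3H rose by 1.92 ± 0.24 (limma adjusted p = 2.18e-09), with 1 of 4 NAIVE arrays detected, so no fold is given. CAST rose by 1.12 ± 0.24, at least 1.55-fold, with an adjusted p of 0.000192 by limma. AJ rose by 0.88 ± 0.28, at least 1.19-fold, with a limma adjusted p of 0.0212. The AJ call was lost without AX5D replicate 3 (adjusted p = 0.0685), AX5D replicate 4 (0.0885), NAIVE replicate 1 (0.0522) or NAIVE replicate 3 (0.0787), and without background correction (0.0718). The 5 remaining strains were not called, with responses from -0.05 in C57 to 0.17 in WSB. The share of all probes called was 30.2% in DBA, 24.2% in C3H, 27.9% in CAST and 16.7% in AJ, and 29.7% in 129, 20.8% in C57, 22.4% in NOD, 24.6% in NZO and 35% in WSB. The share of probes whose NAIVE and AX5D ranges did not overlap was 30% in DBA, 21.9% in C3H, 25.2% in CAST, 32.1% in AJ and 31.2% in WSB.

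The strain differences themselves were tested. The 9 Gfap responses differed by limma's moderated F-test (adjusted p = 1e-08), as did those of 14.3% of all probes. DBA exceeded the mean response of the other 8 strains by 1.70 ± 0.26 (limma adjusted p = 8.86e-06; 2.14% of probes called in that contrast) and C3H by 1.36 ± 0.26 (adjusted p = 0.000649; 0.982%). Without the arrays of runs 4 and 9 the C3H difference was 1.22 with an adjusted p of 0.0504 by limma, and with a run term it was 1.49 with an adjusted p of 0.000545. The run term also brought in C57 (-1.05, adjusted p = 0.0349) and WSB (-0.88, adjusted p = 0.0288) below the other strains. Gfap was detected on no array of WSB and on 1 NAIVE and 1 AX5D array of C57. NOD and NZO, also without a detected array, were not called by limma with the run term (-0.70 and -0.80, adjusted p = 0.24 and 0.1). NAIVE levels of Gfap did not pass the same test (F-test adjusted p = 0.916), while AX5D levels did (adjusted p = 5.11e-16). Gfap was detected on only 3 of 35 NAIVE arrays, so the NAIVE test cannot show whether uninjured strains differ. In increasing order the AX5D means were NZO 5.28, WSB 5.45, C57 5.48, 129 5.57, NOD 5.58, AJ 6.17, CAST 6.62, C3H 7.32 and DBA 7.67. Of the 8 steps between neighbours in that order, 1 was called, from CAST to C3H (0.70, limma adjusted p = 0.0175).

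Over the 9 strains the mean Gfap response was 0.71 ± 0.08 (SE; limma adjusted p = 2.25e-11). This mean includes 3 strains in which Gfap was not detected on any array, so no fold is given, and without background correction it was 0.21 (adjusted p = 1.72e-10). Within each of the 9 runs, relative to the midpoint of each strain, the AX5D arrays were on average higher, by 0.06 to 1.29. The top value came from run 9, whose 1 AX5D array was of C3H, and the runs differed in the strains they held. Macrophage markers moved the same way in the same contrast: 10 of 10 measured rose, with a median response of 2.24 (1.21 without background correction), and their summed normalised intensity ran from 1786 to 4691 on NAIVE arrays and from 7549 to 19960 on AX5D arrays. All 10 were detected on all 35 AX5D arrays. Their part in the Gfap result was not tested.

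S100b, a calcium-binding protein of glia, fell. Its NAIVE levels ran from 8.73 to 11.08 with a median of 9.84, and its AX5D levels from 7.57 to 9.88 with a median of 9.14. The mean response was -0.90 ± 0.13 (SE; 0.534-fold; limma adjusted p = 1.18e-08), and the estimate was below 0 in 9 of 9 strains. A response of 1 sign in all 9 strains was found for 32.8% of all probes. In WSB the NAIVE levels were 9.65, 10.17, 10.57 and 10.58 and the AX5D levels 7.57, 8.74, 8.88 and 9.50, without overlap. Without a run term its response was the deepest, -1.57 ± 0.38 (limma adjusted p = 0.000683). However, 1 AX5D array of WSB lay in run 4 and 1 NAIVE array in run 9. With a run term no strain had a response below -1.11.

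Without a run term S100b was called lower in AJ (-1.36), DBA (-0.99), NZO (-1.08) and WSB, with limma adjusted p-values of 0.0238, 0.0417, 0.0304 and 0.000683. Of these, AJ was lost without AX5D replicate 2 (adjusted p = 0.0511), AX5D replicate 3 (0.112) or NAIVE replicate 1 (0.201). DBA was lost without AX5D replicate 1 (0.0881), AX5D replicate 2 (0.177) or NAIVE replicate 4 (0.199), and NZO without AX5D replicate 1 (0.0624), AX5D replicate 3 (0.121), NAIVE replicate 1 (0.0536) or NAIVE replicate 2 (0.127). Leaving out C3H AX5D replicate 1 (-1.15, adjusted p = 0.0277) or CAST NAIVE replicate 2 (-1.16, adjusted p = 0.0227) brought in those strains. The DBA call was also lost with no filter (0.054), with eBayes without trend (0.0534) and without the arrays of runs 4 and 9 (-0.50, adjusted p = 0.0882), where C3H (-0.72, adjusted p = 0.0233) and CAST (-0.86, adjusted p = 0.00446) were called. Adding a run term gave a mean response of -0.67 ± 0.06 (SE; limma adjusted p = 9.31e-16), and 7 strains were called lower, all but NOD (-0.32, adjusted p = 0.178) and NZO (-0.41, adjusted p = 0.0717). Within the 9 runs the differences lay between -0.91 and -0.52. The S100b responses did not pass the test for differences between strains (F-test adjusted p = 0.672; 0.103 with a run term), nor did the NAIVE levels (0.745; 0.0663 with a run term) or the AX5D levels (0.616), but the last did with a run term (0.00319).

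Among markers of sensory neurons 7 of 10 measured were lower and 2 higher in the same contrast, with a median of -0.33 (-0.20 without background correction). Their summed normalised intensity was 116000 to 161100 on NAIVE and 109300 to 132800 on AX5D arrays. The 3 with the smallest adjusted p were Rbfox3 (-0.48), a neuronal splicing factor, Isl1 (-0.30) and Pou4f1 (-0.50), transcription factors of sensory neurons. Of 12 markers of myelinating Schwann cells, 8 were higher and 1 lower, with a median of 0.17 (6 higher and 3 lower without runs 4 and 9); the 3 with the smallest adjusted p were Gldn (0.62), Pmp2 (0.51) and Drp2 (0.29). The part of either cell type in the S100b result was not tested.

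**Figure D3:**
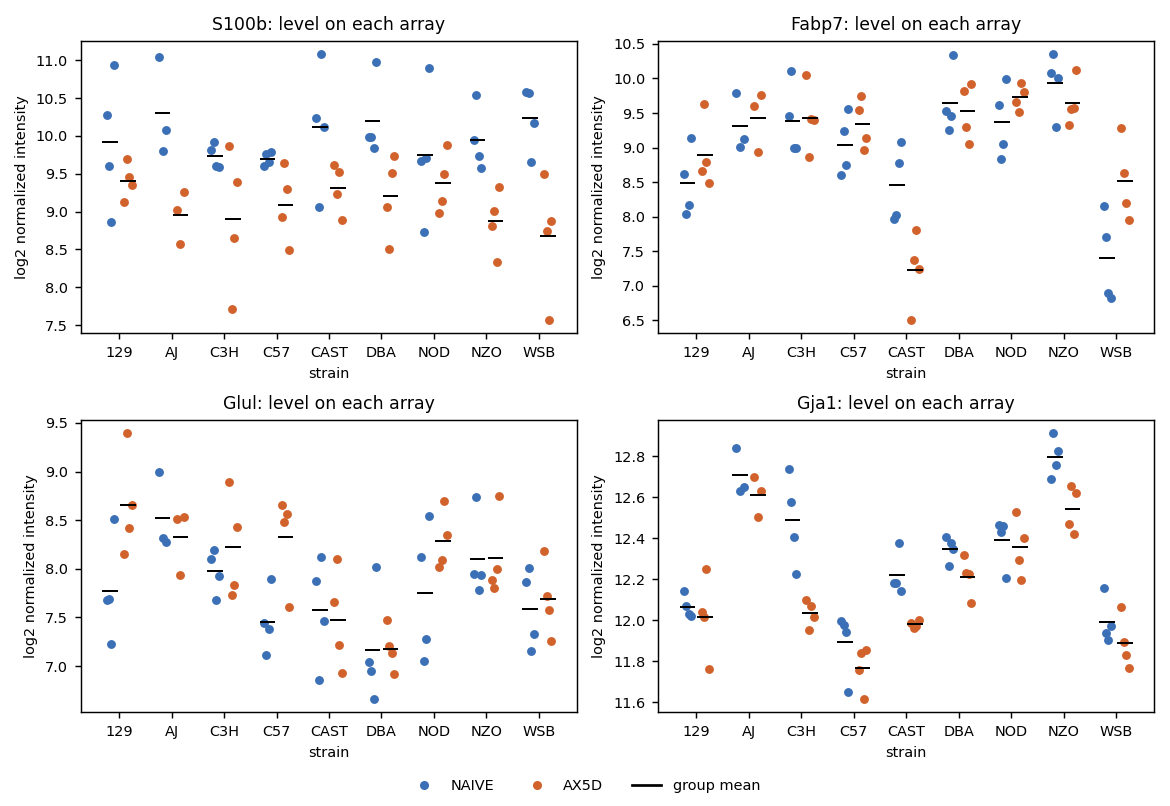
Log2 normalised intensity of S100b, Fabp7, Glul and Gja1 on each array by strain, NAIVE in blue and AX5D in orange, bars at the group means (axes do not start at 0). S100b group means are lower after axotomy in all 9 strains and so are those of Gja1, while the Fabp7 means move down in CAST and up in WSB.

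Fabp7, the brain-type fatty acid binding protein of immature and satellite glia, moved in opposite directions in CAST and WSB. In CAST the NAIVE levels were 7.97, 8.03, 8.78 and 9.08 and the AX5D levels 6.51, 7.25, 7.37 and 7.81, without overlap. In WSB the NAIVE levels were 6.82, 6.90, 7.70 and 8.16 and the AX5D levels 7.95, 8.20, 8.63 and 9.29, and the ranges overlapped. Fabp7 fell by 1.23 ± 0.32 (SE; 0.426-fold; limma adjusted p = 0.00169) in CAST and rose by 1.12 ± 0.32 (2.17-fold; adjusted p = 0.00356) in WSB. Of all probes, 1.62% were called higher in at least 1 strain and lower in at least 1 other.

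The mean Fabp7 response over 9 strains was 0.08 ± 0.11 (SE) and was not called (limma adjusted p = 0.559). A run term brought it to 0.20 ± 0.07 with an adjusted p of 0.0126 by limma, and 129 was then called higher beside WSB (0.54, adjusted p = 0.0489; 0.389 without the run term). The 9 responses differed by the F-test (adjusted p = 0.00896), and with a run term the adjusted p was 3.76e-06, but without background correction it was 0.094 and with the authors' deposited values 0.0962. CAST lay below the mean response of the other 8 strains by -1.47 ± 0.34 (limma adjusted p = 0.0018; 6.9% of probes called) and WSB above it by 1.17 ± 0.34 (adjusted p = 0.0234; 5.67%). The WSB difference was not called without background correction (adjusted p = 0.128), nor without NAIVE replicate 3 (0.0901), NAIVE replicate 4 (0.127), AX5D replicate 1 (0.122) or AX5D replicate 2 (0.0539) of WSB. Both differences were called with a run term, -1.43 (limma adjusted p = 3.48e-06) in CAST and 1.23 (adjusted p = 9.13e-05) in WSB.

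Fabp7 also had strain-dependent levels. In increasing order the NAIVE means were WSB 7.40, CAST 8.47, 129 8.49, C57 9.04, AJ 9.31, NOD 9.37, C3H 9.39, DBA 9.65 and NZO 9.94, and only the first step, from WSB to CAST, was called (1.07, limma adjusted p = 0.00547). The WSB level was 1.81 below the mean of the other 8 strains (difference -1.81 ± 0.24, adjusted p = 7.24e-09 by limma; 21.9% of probes called) and the NZO level 1.05 above it (adjusted p = 0.000655; 16.7%). After axotomy CAST was lowest at 7.23, against 9.31 for the mean of the other 8 (adjusted p = 3e-11 by limma; 44.6% of probes called), and WSB next at 8.52. NAIVE and AX5D levels differed between strains by the F-test (adjusted p = 3.21e-09 and 1.36e-09), as did 56.3% and 60.3% of all probes. Whether the probe binds equally well to the transcript of each strain was not tested for any member.

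Glul, glutamine synthetase, which turns glutamate and ammonia into glutamine, was higher after axotomy by a small mean amount. The NAIVE arrays ranged from 6.66 to 8.99 (median 7.87) and the AX5D arrays from 6.92 to 9.39 (median 8.02), so the treatments overlapped broadly. The mean response was 0.26 ± 0.11 (SE; 1.2-fold; limma adjusted p = 0.0285), and 0.13 without background correction (adjusted p = 0.0279). This call was lost without the arrays of 129 (0.18, adjusted p = 0.148), C57 (0.18, adjusted p = 0.162) or NOD (0.23, adjusted p = 0.0693). Under the run term the response was 0.43 ± 0.06 with an adjusted p of 3.93e-08 by limma, and the difference was above 0 within all 9 runs, from 0.0033 to 0.72.

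In 129 the Glul levels were 7.22, 7.68, 7.69 and 8.51 in NAIVE and 8.15, 8.42, 8.66 and 9.39 in AX5D arrays, and in C57 they were 7.11, 7.38, 7.44 and 7.89 against 7.61, 8.48, 8.56 and 8.66. The top NAIVE array overlapped the AX5D arrays in both strains. The responses, 0.88 ± 0.31 (limma adjusted p = 0.0242) in 129 and 0.87 ± 0.31 (adjusted p = 0.0346) in C57, were the only 2 called for Glul, and with a run term both stayed called (adjusted p = 4.78e-05 and 0.0171) and NOD joined them (0.59, adjusted p = 0.0131). Without the run term the 129 call was lost on leaving out NAIVE replicate 1, 2 or 3 or AX5D replicate 2 (adjusted p from 0.0528 to 0.158), and the C57 call on leaving out NAIVE replicate 1, 2 or 3 or AX5D replicate 1, 2 or 3 (0.0665 to 0.115). The Glul responses did not pass the test for strain differences (F-test adjusted p = 0.34, and 0.278 with a run term). NAIVE Glul levels ran from 7.17 in DBA to 8.53 in AJ, and differed between strains (F-test adjusted p = 0.0175), though not without DBA NAIVE replicate 3 (0.052) or AJ NAIVE replicate 1 (0.087).

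Gja1, a connexin, the main gap junction protein of satellite glia and of astrocytes, fell a little. The NAIVE arrays lay between 11.65 and 12.91 (median 12.26) and the AX5D arrays between 11.62 and 12.70 (median 12.07). The mean response was -0.17 ± 0.03 (SE; 0.892-fold; limma adjusted p = 1.71e-06), below 0 in 9 of 9 strains and within 9 of 9 runs. In C3H the NAIVE levels were 12.23, 12.40, 12.58 and 12.74 and the AX5D levels 11.95, 12.01, 12.07 and 12.10, without overlap, and the response was -0.45 ± 0.09 (limma adjusted p = 3.09e-05). CAST (-0.24, adjusted p = 0.0301) and NZO (-0.25, adjusted p = 0.0245) were also called by limma, and neither was with a run term (0.0526 and 0.052) or under median scaling (0.114 and 0.456) or without runs 4 and 9 (0.23 and 0.232).

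Each of these last calls also ended without any 1 of 4 arrays. In CAST these were AX5D replicates 1, 2 and 3 and NAIVE replicate 3, with limma adjusted p-values from 0.0513 to 0.135. In NZO they were AX5D replicates 1 and 3 and NAIVE replicates 2 and 4, from 0.057 to 0.103. The Gja1 responses did not pass the test for strain differences (F-test adjusted p = 0.156), but did without C3H NAIVE replicate 4 (0.0397). NAIVE means ran from 11.89 in C57, 11.99 in WSB and 12.07 in 129 to 12.71 in AJ and 12.80 in NZO. The NAIVE F-test gave an adjusted p of 3.47e-15, with NZO above the other 8 strains by 0.53 ± 0.07 (limma adjusted p = 1.24e-09) and C57 below them (-0.48, adjusted p = 2.25e-08; 17.7% of probes called), although no step between neighbours was called.

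Ednrb, the endothelin receptor type B of satellite and other glia, was measured by 3 probes that did not give the same size of change. Probe ILMN_2589640 had a median NAIVE level of 13.46 (13.11 to 13.94) and a median AX5D level of 13.65 (13.36 to 14.09). Its mean response was 0.18 ± 0.02 (SE; 1.13-fold; limma adjusted p = 3.41e-09). Probe ILMN_2717765 went from a median of 9.02 (7.68 to 9.84) to 9.31 (8.09 to 9.97), with a mean response of 0.36 ± 0.07 (1.28-fold; adjusted p = 5.76e-06). Probe ILMN_2917471 went from 11.34 (9.87 to 12.35) to 11.48 (10.18 to 12.44), with a mean response of 0.06 ± 0.11 that was not called (adjusted p = 0.661). Given a run term the 3 responses were 0.18, 0.31 and 0.22, all called by limma (adjusted p of 6.4e-09, 6.94e-07 and 1.03e-06), and without runs 4 and 9 the last was 0.22 with an adjusted p of 0.000229. By strain, ILMN_2917471 was called nowhere without the run term, and with it in 129 (0.30), AJ (0.38) and NOD (0.41), with limma adjusted p-values of 0.0319, 0.0174 and 0.00266.

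By strain, Ednrb probe ILMN_2589640 was called higher in 129 (0.27), AJ (0.33), C3H (0.23), DBA (0.20) and WSB (0.18), with limma adjusted p-values of 0.00234, 0.00195, 0.0133, 0.0253 and 0.0385. In AJ its levels were 13.46, 13.52 and 13.66 in NAIVE and 13.70, 13.96 and 13.97 in AX5D arrays, without overlap. None of the 5 was called under median scaling (adjusted p from 0.133 to 0.4), where the mean over strains still was, and C3H (0.0604) and WSB (0.244) were not called without runs 4 and 9. The 5 stayed called with a run term, and NOD joined them (0.20, adjusted p = 0.0441). Leaving out 1 array ended the call in C3H (2 arrays, NAIVE replicate 3 at 0.0689 and AX5D replicate 1 at 0.0528), in DBA (3 arrays, AX5D replicates 1 and 4 and NAIVE replicate 3, up to 0.0812) and in WSB (5 arrays, AX5D replicates 1, 2 and 3 and NAIVE replicates 1 and 2, up to 0.162). It brought in C57 without NAIVE replicate 2 (adjusted p = 0.0442) and NOD without NAIVE replicate 1 (0.0249).

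Probe ILMN_2717765 of Ednrb was called in C57 (0.72), DBA (0.59) and WSB (0.66), with limma adjusted p-values of 0.00543, 0.0176 and 0.00687. The DBA call was lost without AX5D replicate 2 (0.0798) or 4 (0.0509) or NAIVE replicate 3 (0.0846) or 4 (0.111), and the WSB call without AX5D replicate 3 (0.0547). Without runs 4 and 9 both were lost (0.22 and 0.128), and DBA was lost under median scaling (0.053). Including a run term, 6 strains were called higher, AJ, C3H, C57, CAST, DBA and WSB, by 0.41 to 0.53. In 129 this probe was at 8.63, 8.80, 9.05 and 9.13 in NAIVE and 8.09, 8.15, 8.75 and 9.22 in AX5D arrays, a response of -0.35 that was not called (adjusted p = 0.202), and it was called only without AX5D replicate 4 (-0.57, adjusted p = 0.0288). Both AX5D arrays of 129 at 8.09 and 8.15 lay in run 3, where this probe's mean deviation was -0.32. The 129 response of this probe was below the mean of the other 8 strains by -0.80 ± 0.21 (limma adjusted p = 0.0177; 3.92% of probes called). That difference was -0.56 with a run term (adjusted p = 0.0381), and it was lost without runs 4 and 9 (-0.66, adjusted p = 0.113) and without AX5D replicate 1 (0.147) or 3 (0.0846) or NAIVE replicate 1 (0.0817) or 3 (0.0561). The brightest probe gave a 129 response of 0.27, of the other sign. Responses of ILMN_2717765 did not pass the test for strain differences (F-test adjusted p = 0.0805, and 0.102 with a run term). Nor did those of ILMN_2589640 and ILMN_2917471 (F-test adjusted p = 0.26 and 0.652, and 0.233 and 0.479 with a run term).

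NAIVE levels of Ednrb differed between strains by the F-test for all 3 probes (adjusted p of 4.56e-12, 1.14e-08 and 0.0492), and the last was lost in 50 of the 70 fits with 1 array left out. With a run term the adjusted p of that probe was 2.17e-08, and without runs 4 and 9 it was 1.72e-05. All 3 had NZO as the highest strain, at 13.91, 9.66 and 11.91, and on the last probe NZO exceeded the mean of the other 8 by 0.49 with a run term (limma adjusted p = 7.94e-07) and by 0.63 without it (0.0754). NZO exceeded the mean of the other 8 by 0.47 ± 0.05 (limma adjusted p = 1.67e-10) on the brightest probe and by 0.86 ± 0.15 (adjusted p = 9.95e-06) on probe ILMN_2717765. C57 lay below it on the same probes (-0.26, adjusted p = 0.000121, and -0.70, adjusted p = 0.000273), though the first was not called under median scaling (-0.22, adjusted p = 0.11).

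**Figure D4:**
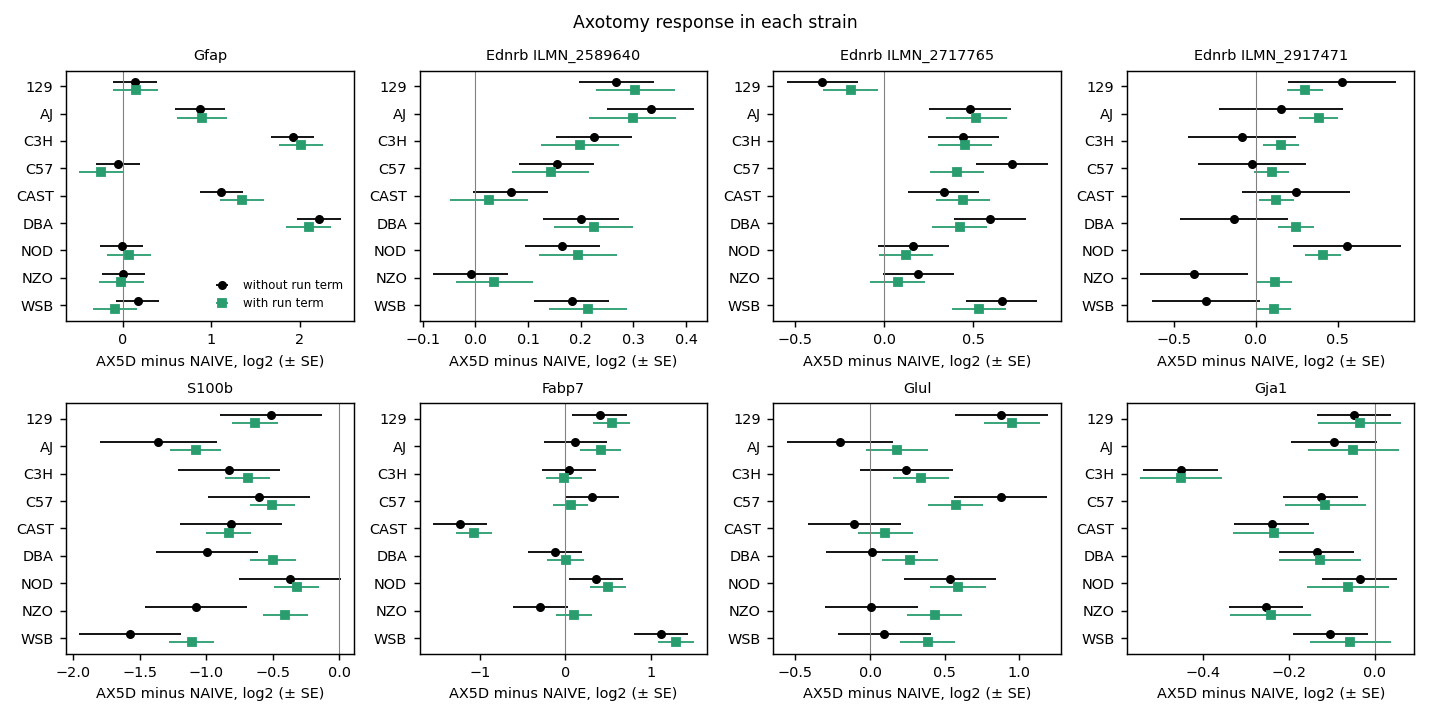
Response to axotomy (AX5D minus NAIVE, log2, horizontal axis, bars ± SE) in each strain for the 8 probes, without a run term (black circles) and with it (green squares); axes differ between panels. Gfap rises in AJ, C3H, CAST and DBA under both fits, S100b lies left of 0 in all strains, and for Ednrb probe ILMN_2917471 the values of C3H, C57, DBA, NZO and WSB lie below 0 without the run term and above 0 with it.

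The deviations of the 6 genes from their group means were correlated across the 70 arrays in 15 pairs, with 100000 permutations within groups and Benjamini-Hochberg adjustment over the pairs. The strongest pairs were S100b with Glul (Pearson r = 0.73, Spearman rho = 0.70), Fabp7 with Glul (r = 0.67, rho = 0.62) and S100b with Fabp7 (r = 0.64, rho = 0.61), each with a permutation p of 1e-05 for both measures, the smallest these permutations can give, and 5e-05 after adjustment. Without the 2 arrays farthest from the median of the first gene, r was 0.71, 0.66 and 0.61. After run means were removed the same pairs had r of 0.13, -0.09 and 0.14 (permutation p of 0.387, 0.525 and 0.312, each 0.606 after adjustment), so that none of the 3 relations held within runs.

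Gfap and Gja1 had a negative correlation of deviations, although Gfap was detected on only 20 of the 70 arrays and not detected on the other 50, r = -0.39 and rho = -0.37 (permutation p = 0.00509 and 0.0051, both 0.0191 after adjustment), r = -0.39 without the 2 farthest arrays. With run means removed r was -0.37 (permutation p = 0.00808, 0.049 after adjustment) and rho -0.35 (permutation p = 0.0116, 0.058 after adjustment), and under median scaling r was -0.29 (permutation p = 0.0826, 0.155 after adjustment). On the levels without run means, Gja1 also went with Ednrb (r = 0.44, rho = 0.38; permutation p = 0.00299 and 0.00765, 0.0449 and 0.0574 after adjustment; r = 0.35 without the 2 farthest arrays) and with Fabp7 (r = 0.40, rho = 0.38; permutation p = 0.00979 and 0.00414, 0.049 and 0.0574 after adjustment; r = 0.34 without the 2 farthest arrays). The first of these had r = 0.29 and the second r = 0.26 before run means were removed, with adjusted permutation p of 0.122 for both. The remaining pairs were not called by Pearson's r before or after removing run means.

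Genes related to each marker were counted in the same mean contrast, beside the 61.6% of genes called overall. Without background correction the medians given below were closer to 0, for S100 genes 0.11 in place of 0.25. Of 10 genes of glial filaments and reactive glia, Gfap included, 9 were higher and 1 lower, with a median of 0.66. The inhibitor of metalloproteases Timp1 rose by 3.21 and the cytokine signalling inhibitor Socs3 by 1.91. Cd44 rose by 0.73 on its brightest probe and 0.59 on another, and its remaining probe was not called (-0.0026, limma adjusted p = 0.982). Serpina3n and Lcn2 rose by 0.49 and 0.78. The filament genes Vim and Nes rose by 0.60 and 0.39, a second probe of Nes was not called (0.11, limma adjusted p = 0.262), and the oncostatin M receptor Osmr fell (-0.20). Stat3, a transcription factor of cytokine signalling, rose by 0.16 to 0.28 on its 3 probes, the brightest of which was lost without the arrays of 129 (adjusted p = 0.144).

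Among endothelin ligands and converting enzymes, Edn2, a ligand, fell (-0.96) and was detected on 29 of 35 NAIVE and 5 of 35 AX5D arrays. Ece2, a converting enzyme, rose by 0.55, while its other probe was not called (-0.12, limma adjusted p = 0.0722). The ligand Edn1 rose by 0.26 and was lost without the arrays of DBA (adjusted p = 0.153) or NZO (0.0598). The converting enzyme Ece1 (0.09, limma adjusted p = 0.0367) was not called with a run term (0.164), under median scaling (0.107), without runs 4 and 9 (0.247) or with any 1 of 16 arrays left out, and its other probe gave 0.01 (0.961). With Ednrb this made 4 higher and 1 lower of 5 measured, with a median of 0.18.

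S100b stood beside 11 other genes of its list, 10 of the S100 family and the S100 binding protein gene S100pbp, of which 6 rose and 1 fell. S100a11 rose by 1.78, S100a8 by 1.00, S100a9 by 0.88, S100a10 by 0.39 and S100a1 by 0.30, and S100a16 fell (-0.20; adjusted p = 0.0863 by limma without runs 4 and 9 and 0.0601 without C57). S100a3 was called higher (0.42) but was detected on only 2 of 35 NAIVE and 11 of 35 AX5D arrays, and with a filter of detection on 35 arrays the list had 5 higher of 10. S100a8 and S100a9 are abundant in neutrophils. Over the 12 the median was 0.25. A run term brought in S100a4 (0.37) and S100a13 (0.13) as higher.

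Of 4 fatty acid binding protein genes measured, Fabp5 rose by 0.49, Fabp3 fell (-0.14), and Fabp7 and Fabp6 were not called, with a median of 0.07. Of 10 genes of glutamate and glutamine handling, 3 rose and 2 fell, with a median of 0.04. Beside Glul, the glutamine transporter Slc38a2 rose by 0.35 on its brightest probe but not on the other 2 (-0.04 and -0.14, limma adjusted p = 0.773 and 0.161), and asparagine synthetase Asns by 0.24, and the glutamate transporter Slc1a1 (-0.59) and the transaminase Got1 (-0.31) fell. The glial glutamate transporter Slc1a3 was not called (-0.03, limma adjusted p = 0.524), though it was without runs 4 and 9 (-0.08, adjusted p = 0.0336).

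For Sox10 the related transcription factors were counted in its place. Of 9 measured, 4 rose and 1 fell, with a median of 0.15. Sox9, a close relative of Sox10, rose by 1.12 and was detected on 9 of 35 NAIVE and 32 of 35 AX5D arrays, and Sox8, the other relative, was not called (0.09, limma adjusted p = 0.428). Nfatc4 (0.26), Egr2 (0.17) and Pou3f1 (0.15) rose, of which Pou3f1 was lost with a run term (adjusted p = 0.0863) and without the arrays of WSB (0.202) and Egr2 without the arrays of AJ (0.0987), C3H (0.159), CAST (0.11) or WSB (0.0586). Olig1 was called lower (-0.17) but was detected on only 6 of 35 NAIVE and 4 of 35 AX5D arrays. Its call was lost with a run term (adjusted p = 0.121) and on leaving out any 1 of 39 arrays, and was at -0.03 without the arrays of CAST (adjusted p = 0.733).

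Of 9 connexins and pannexins measured, 2 rose and 3 fell, Gja1 included, with a median of -0.05. Gjd2, the connexin of neurons, fell (-1.10), and Gja4, a connexin of blood vessels, fell (-0.17) but was lost without the arrays of 129 (limma adjusted p = 0.122), AJ (0.142) or C57 (0.0785). Gjb2 rose by 0.45 and Panx1, a pannexin, by 0.24, and the connexin Gjc1 was called with a run term (0.23, adjusted p = 0.0465; 0.57 without). Other genes reported for satellite glia gave 2 higher and 2 lower of 9, with a median of -0.01. Bcan, a proteoglycan, fell (-0.91) and so did the potassium channel Kcnj3 (-0.49), Sparc rose by 0.27, and Apoe (-0.01) and Sox2 (-0.04) were not called.

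**Figure D5:**
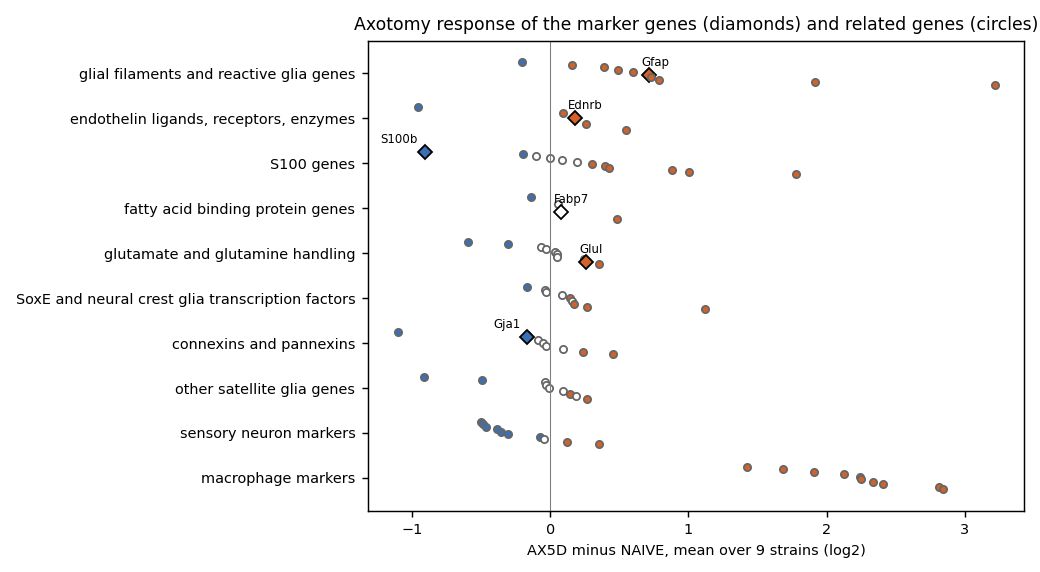
Mean response over the 9 strains (AX5D minus NAIVE, log2, horizontal axis) of the marker genes (labelled diamonds) and of genes in related lists and cell type lists (circles), with 1 row per list; filled symbols were called by limma (orange higher, blue lower) and open ones were not. S100b at -0.90 is the lowest of the S100 list, where S100a11 is highest at 1.78, and the 10 macrophage markers all lie above 1.

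Other cell type lists moved less uniformly than the macrophage markers. Non-myelinating and repair Schwann cell markers gave 5 higher and 6 lower of 13, with a median of -0.11, led by Gap43 (1.35), Cadm1 (-0.47) and Shh (-0.69). Whole ganglia were measured, and the part of Schwann cells, neurons or other cells in these changes was not tested. Endothelial and pericyte markers gave 0 higher and 2 lower of 11 by limma. Connective tissue markers gave 7 higher of 8, with a median of 0.54. Markers of the astrocytes of the central nervous system, few of which were measured, gave 1 higher (Aldh1l1, 1.39) and 2 lower (Aqp4, -0.82, and Agt, -0.60) of 4.

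The genes whose 18 group means correlated best with each marker were listed as a description, over means that share arrays and strains. These means were not corrected for runs, with which S100b and other members moved strongly. For Gfap they were Saa3, Nrap and Tnc (r = 0.91, 0.91 and 0.90), for S100b Nefm, Oxr1 and Nap1l5 (0.97, 0.96 and 0.95) and for Fabp7 Hspb2, Lyrm2 and Map2k2 (0.85, 0.85 and 0.84). For Ednrb they were Rgs17, Tgfbr3 and Trpm3 (0.83, 0.80 and 0.79), for Glul Olfr920, Rnasek and Rnpep (0.80, 0.79 and 0.78) and for Gja1 Cfap206, Etv4 and Nfkbie (0.79, 0.79 and 0.78). Nefm, the medium neurofilament chain of neurons, itself fell after axotomy (-0.36, limma adjusted p = 2.09e-10).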

How the data were processed

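Total RNA from 70 labelled samples was measured on Illumina bead arrays. The deposited non-normalised table gave, per the file headers, an intensity and a detection p-value for each of 25697 probes and 72 arrays, and 2 arrays that belong to no labelled sample here (the design text calls them technical outliers) were not used. The authors' deposited value table was log2-transformed; it differed by at most 0.027 from quantile normalisation of the intensities without background correction. The scanner software and probe sequences are not given in the sources used here.

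Background was removed with limma's nec from the detection p-values (offset 16), and values were quantile-normalised and log2-transformed (R 4.3.3, limma 3.58.1). Probes detected (p under 0.05) on at least 3 arrays were kept, 17616 in all, without regard to group. One fit with a mean per group (18 groups, residual df 52, eBayes with trend) gave every contrast, with Benjamini-Hochberg adjustment over all kept probes and a threshold of 0.05, two-sided. A gene with several probes was represented in lists by its brightest probe. Deviations from group means were correlated in Python with scipy 1.17.1.

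The markers and lists were chosen with earlier results of these data known. Named genes were all member probes, up to 3 genes per list by smallest adjusted p, called members of the lists of related genes, and the 3 genes most like each marker; Apoe, Sox2, Slc1a3, Sox8 and Fabp6 were added after their values were seen. Alternatives covered background correction, scaling, filters, offset 50, array weights, blocks, runs and leaving out arrays or strains. The scripts were tested on simulated data. The number of arrays limits the precision.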

Additional observations from a re-analysis of the deposited data

Results flagged for a closer look

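An outlier test was run for each of the 8 probes in each of the 16 groups of 4 arrays, 128 tests in all. In 9 of them, 1 array stood apart from the other 3 of its group. Its gap to the nearest of these 3, as a share of the group's range, exceeded Dixon's 95% critical value. Chance gives about 1 in 20 for a single test, and the tests shared arrays and were not independent. For Gfap, C57 NAIVE replicate 4 read 6.52 against 5.14 to 5.24 for the others (ratio 0.923). For Ednrb probe ILMN_2717765, C57 AX5D replicate 4 was high at 9.31 (0.869) and CAST NAIVE replicate 3 low at 8.49 (0.857). For Ednrb probe ILMN_2917471, DBA AX5D replicate 2 was low at 10.54 (0.842), DBA NAIVE replicate 4 high at 12.03 (0.88) and WSB AX5D replicate 3 low at 10.27 (0.87). For S100b, DBA NAIVE replicate 4 was high at 10.97 (0.87). For Gja1, C57 NAIVE replicate 4 was low at 11.65 (0.846) and NOD NAIVE replicate 4 low at 12.21 (0.87). Of the 9, 7 were on arrays of runs 4 and 9, which hold 16 of the 70 arrays. C57 NAIVE replicate 4 was the array apart for both Gfap and Gja1, and DBA NAIVE replicate 4, an array of run 9, for both S100b and an Ednrb probe.

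The response to axotomy differed between strains for Gfap (F-test adjusted p = 1e-08) and Fabp7 (0.00896). Fabp7 did not pass the F-test without background correction or with the authors' deposited values. Against the mean of the other 8 strains, the Gfap response was larger in C3H (1.36) and DBA (1.70). The Fabp7 response was smaller in CAST (-1.47) and larger in WSB (1.17). The response of Ednrb probe ILMN_2717765 was smaller in 129 (-0.80). That probe's responses did not pass the F-test between strains (adjusted p = 0.0805), and the brightest Ednrb probe rose in 129 (0.27).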

How the results depend on the processing

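Without background correction and with the authors' deposited values every mean response of a member probe kept its direction and its side of the threshold. Sizes were smaller without background correction: Gfap 0.21 in place of 0.71, Glul 0.13 in place of 0.26, and list medians of 1.21 in place of 2.24 for macrophage markers, -0.20 in place of -0.33 for sensory neuron markers and 0.11 in place of 0.25 for S100 genes. No mean response of a member reversed under any alternative run, and those that crossed the threshold are as follows. With a run term, Ednrb probe ILMN_2917471 (0.22) and Fabp7 (0.20) became called, and without runs 4 and 9 the Ednrb probe did too (0.22); the SE of both was smaller with the run term. Glul was no longer called without 129 (0.18), C57 (0.18) or NOD (0.23). Tested against a fold of 1.5 in place of no change, none of Gfap (0.71, adjusted p = 0.686), S100b (-0.90, 0.102), Glul (0.26, 1), Gja1 (-0.17, 1) and both called Ednrb probes (0.18 and 0.36, 1 each) passed, and 1417 of 17616 probes did, against 10474 tested against no change. Under median scaling the probes whose response differed between strains numbered 1660, against 2520, and calls of a strain's response against the other 8 summed to 2802. Under quantile normalisation such calls numbered 690 in 129, 173 in C3H, 1215 in CAST, 377 in DBA and 998 in WSB. The cause of the difference was not tested. Median scaling also raised the called pairs of members from 4 to 7 of 15, and r of Ednrb with S100b went from 0.03 to -0.39 (adjusted permutation p = 0.0269), while removing run means took Fabp7 with Glul from 0.67 to -0.0889. Leaving out each array in turn, the mean response stayed between 0.69 and 0.75 for Gfap, -0.94 and -0.86 for S100b and 0.23 and 0.29 for Glul. Same-numbered NAIVE and AX5D arrays of a strain did not deviate together (34 pairs, mean residual correlation 0.03, from -0.19 to 0.39, 10 above 0.1), so the numbers were not taken as pairs; a replicate block changed no call of a member's mean response and gave 10528 called probes as a random block and 10485 as a fixed term. Signal over background limited Gfap, detected on 20 of 70 arrays.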
